A study of Mus musculus with 14 samples.

Results

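The histone genes of the newborn mouse brain were taken as all rows of the count table whose gene symbol carries a name of the replication-dependent histone clusters in the older (Hist1 to Hist4) or the newer nomenclature (H1f, H2ac, H2bc, H3c, H4c and the other H1f to H5f names). The rule found 63 of the 17927 genes in the table. Of these, 55 are coding genes of the replication-dependent kind, with 5 of class H1, 12 of H2A, 14 of H2B, 11 of H3 and 13 of H4. The same names also bring in 4 genes of replacement variants (H1f0, H1f10, H3f3a and H3f3b) and 4 transcripts that do not code (the pseudogenes H1f11-ps, H3f3a-ps1 and H3f3a-ps2, and the antisense RNA H3f3aos), which are described apart. The rule reads names alone.

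Brains of 7 wild type (WT) and 7 Capn15 knockout (KO) mice were compared by RNA-SEQ at postnatal day 2, in untreated animals of lines made on C57BL/6J. Capn15 is a member of the calpain protease family, and the labels say no more of the KO than its name, while the study's methods describe a Capn15(lacZ-Neo) line and a conditional line. The study used brains of 6 litters, and the column names carry a letter from A to F, read here as the litter, and F or M, read as the sex, so that B gave 4 brains and each other litter gave 1 WT and 1 KO brain. The 2 WT females were in litters C and D and the 4 KO females in A, B and E, so that in every litter except F the KO and WT brains were of opposite sex.

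Libraries held from 37620954 to 70910163 counts in total. A value in CPM (counts per 1000000 counts of a library, scaled here with TMM factors) of 0.0797 corresponds to 3 counts in the smallest library. Replication-dependent histone genes took between 0.118% and 0.156% of all counts. Capn15 was at 18.7, 26.2 and 27.3 CPM in WT (lowest, median and highest library) and at 12.2, 13.9 and 20.2 CPM in KO, a log2 fold change of -0.81 (standard error 0.118, FDR, the Benjamini-Hochberg adjusted p, = 0.0747 in edgeR's quasi-likelihood test). The lowest WT value, 18.7 CPM, came from the library labelled WT replicate 7 and the highest KO value, 20.2 CPM, from the library labelled KO replicate 7, both of litter F, which goes against these labels. Without litter F the log2 fold change was -0.98 (standard error 0.0571, FDR = 1.58e-06). The counts of members called by genotype are therefore also given without litter F. The labels give neurons as the cell type, but astrocyte markers summed to between 1485 and 2092 CPM and endothelial markers to between 204 and 267 CPM. In bulk tissue, fewer dividing cells and less histone RNA per dividing cell cannot be told apart.

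Histones are the proteins around which DNA is wound: H2A, H2B, H3 and H4 form the core of the nucleosome, and H1 binds the linker between cores. The replication-dependent genes supply them during S phase, when the genome doubles. Their mRNAs are unusual among animal mRNAs in that most end without a poly(A) tail, in a conserved stem-loop that is bound by the protein Slbp, and are degraded when DNA synthesis stops. Libraries selected for poly(A) therefore miss most of these mRNAs, while libraries from total RNA depleted of ribosomal RNA, as used here, keep them. Replacement variants, such as H3.3 encoded by H3f3a and H3f3b, are made throughout the cell cycle from ordinary polyadenylated mRNAs and enter chromatin outside S phase. In the brain at postnatal day 2, dividing cells include glial progenitors and the granule cell precursors of the cerebellum.

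The 3' stem-loop is the sequence feature that sets the replication-dependent mRNAs apart, and it is shown here for the forms found in the members. The transcripts of GENCODE M21 (GRCm38) were searched on the sense strand for 16 bases that begin with GG, hold TTTT after 3 further bases and end in CC, and in which the last 6 bases are the reverse complement of the first 6, that is, 2 paired arms around a loop of 4 bases. Of 55450 genes, 57 held it, or 0.103%. It was in 36 of the 55 replication-dependent genes, in 0 of the 4 replacement variants and in 0 of the 4 transcripts that do not code. Among the 19 replication-dependent genes without it, model lengths run from 312 to 2620 bases. A model can end before the stem-loop, and no match says only that these letters are not in the annotated transcript. The 6 forms are each shown once below, with 5 bases on either side in lower case and the 16 bases of the stem-loop in capitals. The most frequent form of classes H1 to H3, in 19 of their genes, is shown from H1f4 (chr13:23621777-23621802, minus strand), and the form with an A in the loop from H2bc3 (chr13:23747198-23747223, plus strand). H2ac20 (chr3:96220413-96220438, minus strand) was the only H2A gene with the form shown for it.
H1f4: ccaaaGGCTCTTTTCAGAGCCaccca
H2bc3: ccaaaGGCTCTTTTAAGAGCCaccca
H2ac20: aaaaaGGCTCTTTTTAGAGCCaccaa
The H4 genes differed from the other classes in the stem: 7 had the form shown from H4c4 (chr13:23581945-23581970, plus strand), 2 that of H4c14 (chr3:96262934-96262959, minus strand) and 2 that of H4c2 (chr13:23757361-23757386, plus strand).
H4c4: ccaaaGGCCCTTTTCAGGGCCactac
H4c14: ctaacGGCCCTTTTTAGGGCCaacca
H4c2: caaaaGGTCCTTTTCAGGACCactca
In 18 of the 36 models the annotated transcript runs more than 100 bases past the stem-loop. The extreme is H1f3, whose model of 7425 bases continues for 4884 bases after it, and such a model lowers the level per kb of exon.

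Of the 55 replication-dependent genes, 47 lie on chromosome 13, 7 on chromosome 3 and 1, H4f16, on chromosome 6, and 52 have a single exon. In 9 pairs an H2A and an H2B gene start back to back, with 176 to 302 bases between the starts. RefSeq gave the promoter (GRCm38.p6) of 50 of the 55 genes and of the 4 replacement variants, and the 250 bases before the start were searched on both strands. TATAAA, the core of the TATA box, was in 52.0% of the 50 and in 12.4% of the 32851 promoters of the table. A match counted anywhere in the 250 bases, as at -250 in H4c6 and -212 in Hist1h2bp. These shares are therefore not shares of genes with a TATA box. CCAAT was in 80.0% against 33.8%, with all 12 H2A, all 12 H2B and all 5 H1 promoters but 3 of 12 H4 promoters. The octamer ATTTGCAT was in 5 of 12 H2A and 5 of 12 H2B promoters, in none of the other replication-dependent classes, and in 1.6% of all promoters. Genes that start back to back can share a match, as H2ac12 and H2bc12, and H2ac8 and H2bc8, do for the octamer. The H2A and H2B counts of a motif are therefore not independent. GGTCCG was in 9 of 12 H4 promoters against 6.7% of all promoters, and AAACACA in 4 of 5 H1 promoters against 6.2%. GGTCCG and AAACACA were chosen after the sequences had been seen. The 120 bases before the start are shown for a gene of each of the classes in which these letters differ, with every match to the 5 motifs, on either strand, in capitals. They are from H1f4 (chr13:23622559-23622678, minus strand), H2bc8 (chr13:23571280-23571399, plus strand) and H4c4 (chr13:23581448-23581567, plus strand).
H1f4: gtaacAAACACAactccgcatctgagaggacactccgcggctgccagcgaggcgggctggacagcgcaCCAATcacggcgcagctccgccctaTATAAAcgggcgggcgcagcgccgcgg
H2bc8: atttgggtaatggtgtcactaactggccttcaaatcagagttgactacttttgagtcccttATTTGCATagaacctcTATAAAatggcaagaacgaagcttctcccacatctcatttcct
H4c4: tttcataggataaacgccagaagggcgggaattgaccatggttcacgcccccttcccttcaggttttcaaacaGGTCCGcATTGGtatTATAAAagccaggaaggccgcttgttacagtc
A match describes these letters and not a bound site. The motifs were not limited to replication-dependent genes. Of the 4 replacement promoters, 1, that of H3f3b, held the octamer and the core of the TATA box. CCAAT was in 2 of these 4 promoters. The motifs chosen after the sequences had been seen were each in 1 of the 4. Motifs can share bases, as CCAAT and GGTCCG do in H3c11, where both matches overlap.

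All 63 members were counted in every library, the lowest being H3c15 with 6 counts in its lowest library and a mean of 0.465 CPM. The other 62 had a mean of at least 1 CPM. H4 genes made up 36.6% ± 1.89 of the replication-dependent counts in WT and 37.6% ± 1.58 in KO (SD, n = 7 each), and H1 genes 26.9% ± 1.20 and 26.3% ± 1.59. H2B genes made up 21.5% ± 1.27 and 21.2% ± 1.11, H3 genes 8.90% ± 0.387 and 8.90% ± 0.275, and H2A genes 6.06% ± 0.154 and 6.01% ± 0.134. The core histones are thus far from equal in these counts, although a nucleosome holds them in equal number. These shares are not corrected for model length. Summed per kb of exon, H4 genes were at 764 CPM, H2B at 513, H1 at 267, H3 at 195 and H2A at 173. All 12 H2A genes are overlapped by an annotated model on the other strand, against 3 of the other 43, and a median of 38.4% of the 100-base windows of the H2A genes occur in no other annotated transcript, on either strand, against 81% for H4. Whether reads shared between copies or strands were dropped in counting is not given in the sources used here, and their part in the class shares was not tested.

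Per kb of exon, the highest replication-dependent gene was H4c8, at a mean of 145 CPM per kb, followed by H2bc18 (129), H4c4 (110), H4c12 (109), H4c6 (101) and H4c3 (101). H4c8 was at 54.5, 68.2 and 77.1 CPM in WT (lowest, median and highest library) and at 63, 68.5 and 74.8 CPM in KO. H4c4 was at 109, 127 and 139 CPM in WT, and 117, 121 and 140 CPM in KO. The ranges of these H4 genes overlapped between genotypes, and neighbours in the order from H4c4 to H4c3 differed by less than their spread. The 4 H4 genes with the most counts held 62.7% of the class total.

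In the linker class, H1f1 had a mean of 76.5 CPM per kb, H1f5 69.6, H1f2 57.2 and H1f4 55.2, and H1f3, with its long model, 8.41. Not per length, H1f4 had the most counts of the class, at 96.3, 105 and 128 CPM in WT and 82.1, 108 and 130 CPM in KO. The 5 H1 genes were between 51.7 and 107 CPM on average, so that no H1 gene made up most of the class.

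Among the H2B genes H2bc18 led, at 40.9, 51.8 and 56.8 CPM in WT and 41.7, 48.8 and 58.8 CPM in KO. It is overlapped by the model Gm42743 on its own strand and none of its 100-base windows is unique, so that its count is uncertain. H2bc3 (82.5 CPM per kb), H2bc15 (77.2) and H2bc14 (46.8) followed. Among the H2A genes H2ac15 led at 50.3 CPM per kb, ahead of H2ac20 (24.5), H2ac4 (22.2) and H2ac13 (20.4). In 7 of the 9 back-to-back pairs the H2B gene was higher per kb than its H2A partner. Ratios of H2B to H2A lay between 0.114 and 10.3 over the 9 pairs. Unique windows of the H2A partners ran from 10.5% (H2ac12) to 91.9% (H2ac6), and the model of H2ac6 runs 2010 bases past its stem-loop. The part of shared windows and model length in these ratios was not tested. The lowest ratio was that of H2bc21, whose model of 2620 bases is long for a histone gene, and H2ac20.

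Among the replication-dependent H3 genes H3c11 (37.2 CPM per kb) and H3c13 (32.5) led, and the others lay between 9.99 and 20.6 CPM per kb except H3c15 at 0.456. None of the windows of H3c13 is unique. Each of the H3.3 genes exceeded every one of them. H3f3b was at 470, 511 and 741 CPM in WT, and 458, 501 and 760 CPM in KO, and H3f3a at 283, 311 and 343 CPM in WT and 274, 312 and 377 CPM in KO. Per kb these are 187 and 90.7 CPM, against a sum of 195 CPM per kb over the 11 replication-dependent H3 genes. H1f0, the linker variant of cells that have left the cycle, had a mean of 119 CPM (57.8 per kb), and H1f10 7.61 CPM (6.25 per kb). The 4 transcripts that do not code were between 1.01 and 2.46 CPM.

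**Figure D1:**
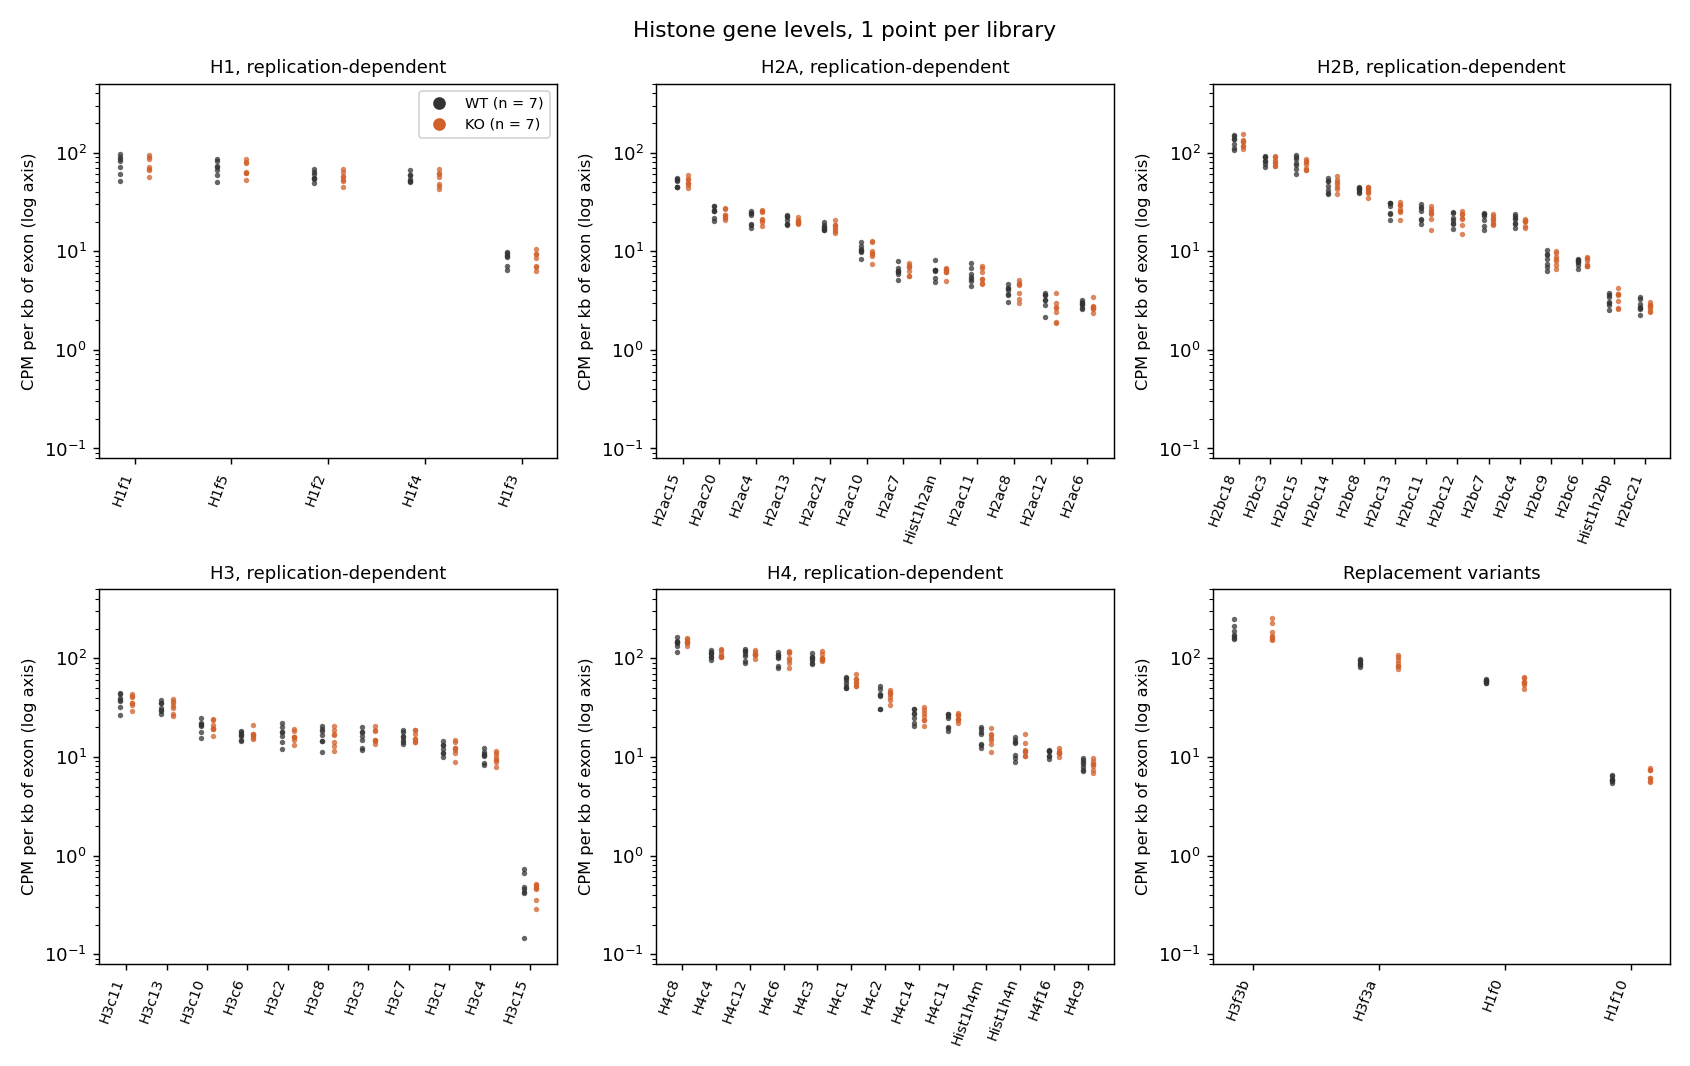
Level of each coding histone gene in CPM per kb of exon (log axis), 1 point per library, WT in dark grey and KO in orange (n = 7 each), with the genes of each class in order of their mean. WT and KO points overlap for every gene, and H4c8 at 145 CPM per kb and H3c15 at 0.456 mark the ends of the replication-dependent range.

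The main question of the design was whether loss of Capn15 changed transcript levels, and for the histone genes no change was detected. Fitted together with litter and sex, the genotype gave 0 of 63 members called (FDR below 0.05 by the same test), where 0.00558% of all genes were (1 of 17927). At an unadjusted p under 0.05 the count was also 0 of 63, against 5.14% of all genes, and DESeq2, limma-voom and edgeR's likelihood ratio test each gave 0 of 63 at both thresholds. The smallest FDR of a member was 0.971. The log2 fold change (KO over WT) of the 55 replication-dependent genes had a median of -0.03, with values between -0.23 and 0.09 and a median standard error of 0.06. The median over all genes was 0.0015. The test called 94 of 100 genes that had been simulated with a log2 change of 0.5 in counts of this depth, drawn among all genes above 1 CPM, and 100 of 100 at a log2 change of 1, with 9 false calls. Genes at a mean of 1 CPM or more had a median standard error of 0.043, smaller than that of the replication-dependent genes. No change below 0.5 was simulated, so that the simulation says nothing of changes of the size seen here. The simulated libraries all carried true labels, and in the data the same test did not call Capn15 (FDR = 0.0747) while litter F was included.

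In sum the replication-dependent genes were at 1375 ± 134 CPM in WT, and in KO at 1372 ± 141 CPM (SD, n = 7 each). The difference in mean log2 was -0.0038. It and the class differences below are between plain group means, without the litter and sex terms of the fit. The KO group held more females than the WT group. The libraries ran from 1191 to 1518 CPM in WT and from 1180 to 1568 CPM in KO, and the groups overlapped almost wholly. Within litters the log2 difference of the mean sum (KO minus WT) was 0.073 in A, 0.054 in B and -0.21 in C. It was 0.046 in D, -0.039 in E and 0.0022 in F, so that the KO mean was higher in 4 of 6 litters. In B, KO replicate 2 was at 1307 CPM but KO replicate 3 at 1180 CPM, below both WT brains (1191 and 1203 CPM). In F, whose labels Capn15 goes against, the brains labelled KO and WT were at 1508 and 1506 CPM. By class, the mean log2 difference was -0.039 for H1, -0.014 for H2A, -0.024 for H2B, -0.0034 for H3 and 0.035 for H4, each within the spread between libraries.

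The direction of the single genes was uneven between classes but small. Of the 55, 35 had a fold change below 0, where 48.6% of all genes did. All 5 H1 genes were among them, from -0.02 (H1f5) to -0.07 (H1f2), while 8 of 13 H4 genes had a value above 0, as had 51.4% of all genes. Genes of a class share sequence and libraries, and these counts were not tested.

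The members with the smallest genotype p were H1f10, H3f3aos, H1f0, H2ac20 and H4c11, and none passed the threshold. H1f10, a linker variant, was at 6.57, 7.07 and 7.90 CPM in WT, and 6.76, 7.51 and 9.31 CPM in KO, with a log2 fold change of 0.13 (standard error 0.0597, edgeR unadjusted p = 0.0525, FDR = 0.971). It overlaps the models Gm47286 and Gm5577, and its count is uncertain. H3f3aos was at 1.67, 2.66 and 3.69 CPM in WT, and 1.91, 2.11 and 3.06 CPM in KO (log2 fold change -0.20, standard error 0.103), and since it lies antisense to H3f3a its reads are uncertain unless counting used the strand. H1f0 was at 114, 120 and 127 CPM in WT, and 99.4, 117 and 132 CPM in KO (log2 fold change -0.06, standard error 0.0299). H2ac20 was at 10.4, 13.3 and 15 CPM in WT, and 10.8, 12.2 and 14.2 CPM in KO (log2 fold change -0.09, standard error 0.0482). H4c11 was at 14.2, 19.2 and 21 CPM in WT, and 16.9, 19.0 and 21.8 CPM in KO (log2 fold change 0.09, standard error 0.0464). The 2 groups overlapped for all of these genes. H3f3a (0.0064, standard error 0.0388) and H3f3b (-0.02, standard error 0.0382) were near 0.

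Leaving out litter F, whose labels Capn15 goes against, left the members at 0 of 63 at both thresholds, and the log2 difference of the replication-dependent sum was then -0.0048. The 5 members with the smallest p had log2 fold changes of 0.13 (H1f10), -0.17 (H3f3aos), -0.06 (H1f0), -0.09 (H2ac20) and 0.07 (H4c11) without it. Leaving out litter D, chosen after the data had been seen, raised the count at an unadjusted p under 0.05 from 0 to 11 of 63, against 8.08% of all genes, all 11 lower in KO, and none had an FDR under 0.05 (smallest 0.459). The 11 were H1f2, H1f3, H1f4, H1f0, H2ac6, H2ac10, H2bc3, H2bc15, H2bc18, H3c2 and H3c4. Without the 4 brains of litter B, 4 of 63 reached an unadjusted p under 0.05 (H2ac20, H2bc4, H2bc15 and H1f0), all lower in KO, against 7.44% of all genes, again with none by FDR. In litters other than C, D and F the KO brains were female and the WT brains male, so that genotype and sex are told apart only by those 3 litters.

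For the same reason the sex coefficient was read beside the genotype. Between females and males 0 of 63 members passed an FDR of 0.05 by edgeR's quasi-likelihood test, where 0.0669% of all genes did, and DESeq2 and limma-voom also gave 0. At an unadjusted p under 0.05, 6 of 63 members were higher in females, against 5.04% of all genes in either direction, while DESeq2 gave 2 and limma-voom 4. They were H1f0, H2bc18, Hist1h2bp, H3c3, H4c14 and H4c11, with log2 differences (female minus male) between 0.08 and 0.25. Of the 55 replication-dependent genes 47 had a value above 0, where 51.6% of all genes did, with a median of 0.07 against 0.0021 for all genes. Without litter D the number at an unadjusted p under 0.05 was 20 of 63, against 11.3% of all genes, and without either brain of litter C, in which the WT female had the higher histone sum, it was 0. The counts by sex thus moved with single litters.

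**Figure D2:**
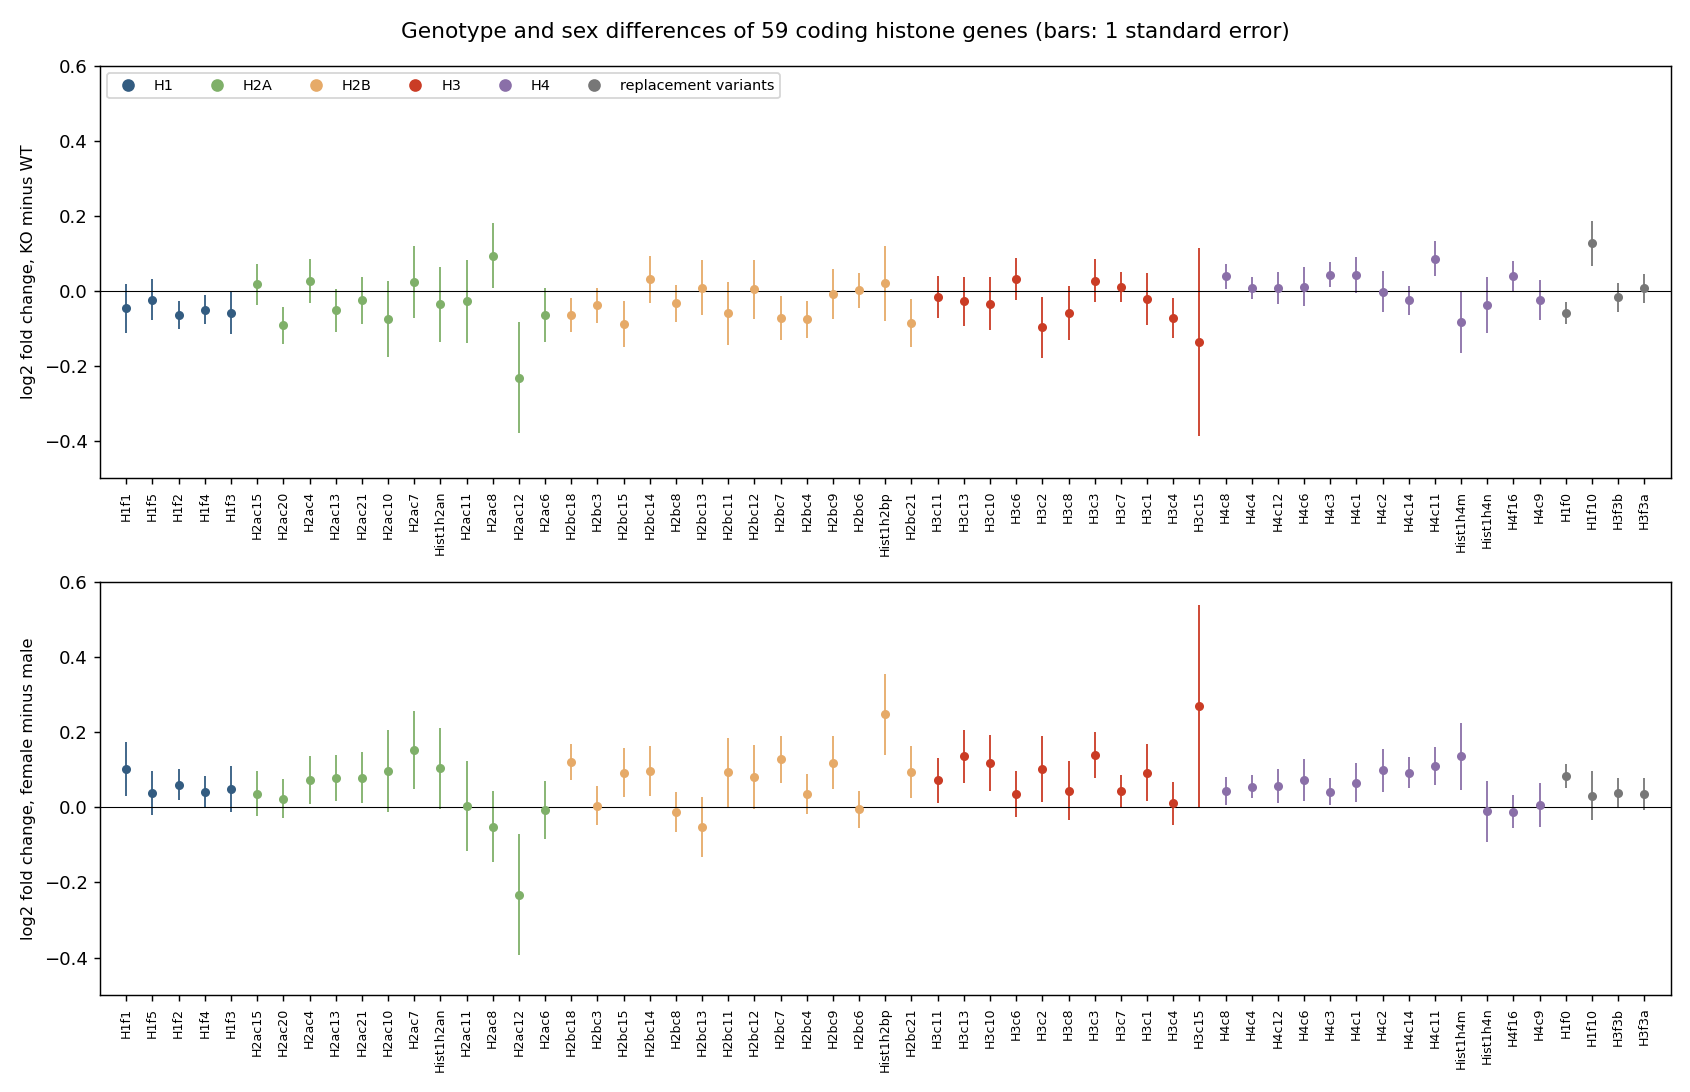
Log2 fold change of the 59 coding histone genes between KO and WT (upper) and between females and males (lower) from edgeR's fit with litter, sex and genotype, with bars of 1 standard error and classes in colour. Genotype values of replication-dependent genes lie between -0.23 and 0.09, and 47 of those 55 genes are above 0 in the lower plot.

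Of genotype, sex and litter, only litter gave histone members called by FDR. In the joint test over litters, 38 of 63 members passed an FDR of 0.05 by edgeR's quasi-likelihood test, where 29.6% of all genes did, and 49 of 63 an unadjusted p of 0.05, where 41.0% did. Among genes with a mean of at least 1 CPM, the figures were 38 of 62 members and 34.0% of genes. Of the replication-dependent genes 34 of 55 were called: all 5 H1, 12 of 13 H4, 8 of 11 H3, 6 of 14 H2B and 3 of 12 H2A genes. Of the 34 called genes, 30 had their lowest litter mean in B and 16 their highest in D, 8 in F and 8 in A. Of all genes called by litter, 49.7% were lowest in B. Called or not, 25 of the 55 were highest in D, where 2408 of all 17927 genes were. The shares of all genes highest in A, B or F were not counted. The difference between the lowest and the highest litter of the 34 was between 0.27 and 0.70 on the log2 scale, with a median of 0.44.

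The sum of the 55 genes averaged 1220.3 CPM in litter B, 1354 in C, 1357 in E, 1414 in A, 1507 in F and 1543 in D. The brains of B lay between 1180 and 1307 CPM, and the KO brain of litter C, at 1254 CPM, was the only brain of another litter within that range. D and B had the highest and the lowest sum of these same genes, so that a count favouring D follows largely from their choice. The share of all genes carries no such choice, so that the 2 are not alike and the comparison below is descriptive only. In litter D 53 of the 55 genes were above their mean in B, where 49.6% of all genes were. The median log2 difference was 0.31, against -0.0020 for all genes. The 2 exceptions, H2bc21 and Hist1h2bp, both H2B genes, had their highest litter mean in B.

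**Figure D3:**
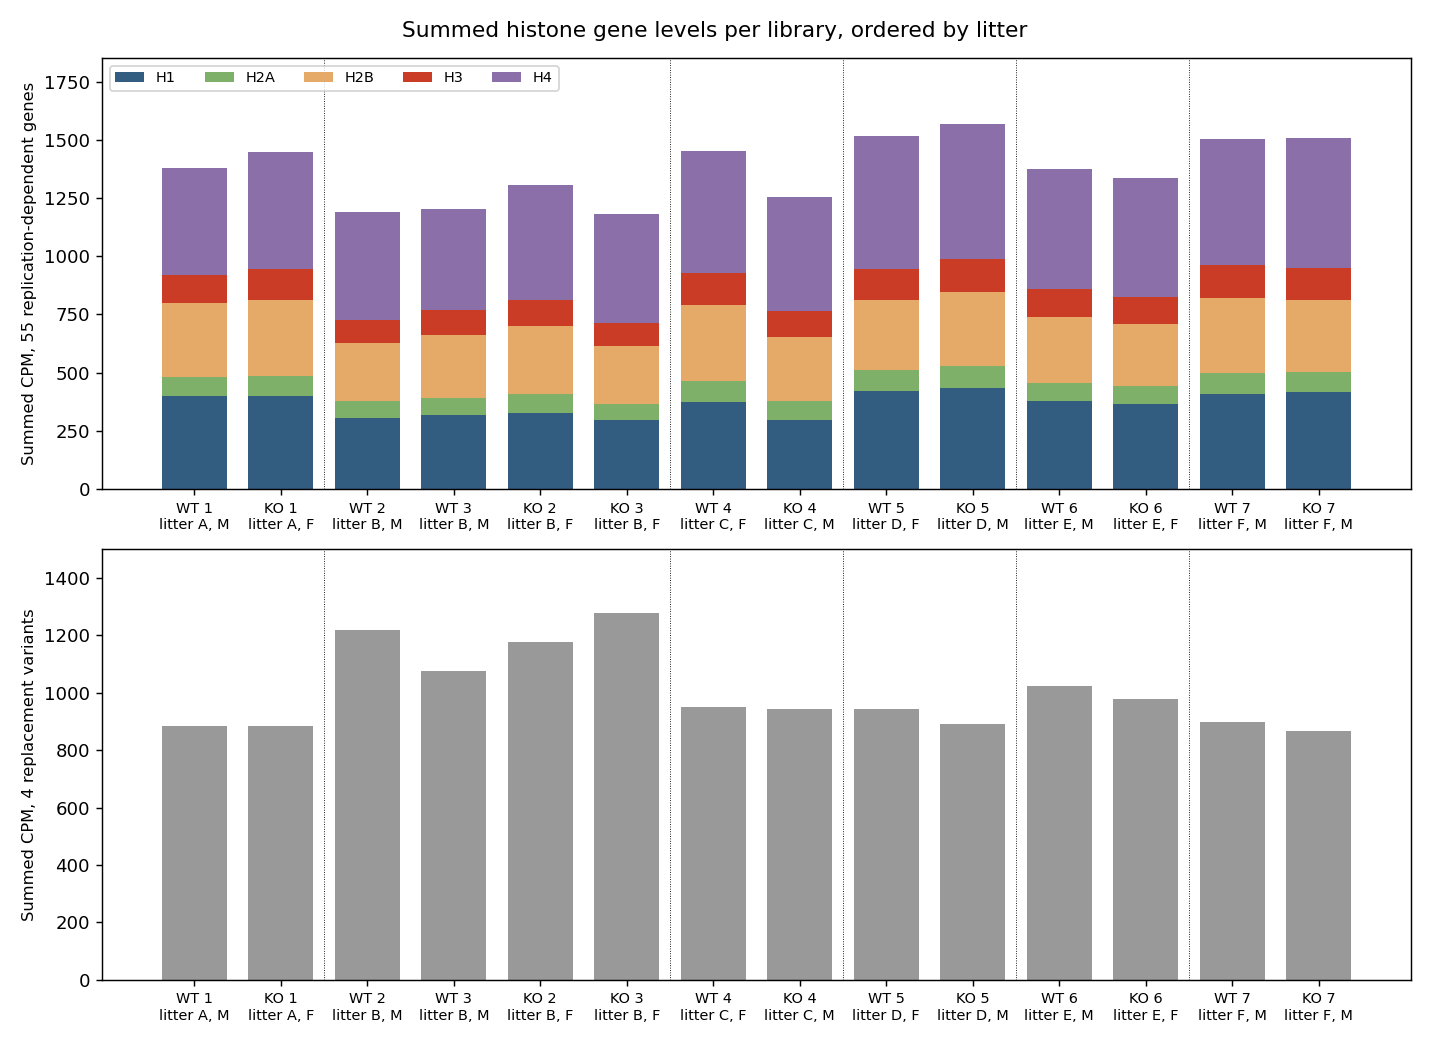
Summed CPM of the 55 replication-dependent histone genes by class (upper, stacked) and of the 4 replacement variants (lower) in each of the 14 libraries, ordered by litter, with F and M for the sex. Litter B has the lowest replication-dependent mean (1220.3 CPM) and the highest replacement mean (1187 CPM).

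The 10 members with the smallest litter p were H3f3b, H4c14, H1f4, H1f2, H1f5, H3c3, H4c2, H3c7, H1f3 and H1f1. H4c14 averaged 35.3 CPM in litter B and between 41.8 and 50.7 CPM in the others (edgeR litter FDR = 0.000174). H1f4 averaged 90.6 CPM in C and 94.2 in B, against 129 in D (FDR = 0.000265), and H1f2 77.9 in C and 81.1 in B, against 106 in D (FDR = 0.000686). H1f1 and H1f5 followed another order among litters: H1f1 was highest in A at 70.6 CPM and lowest in B at 44.5, and H1f5 was at 63.7 in A and 41.8 in B. H4c8 was lowest in A, at 58.8 CPM, and at 76.0 in D. The H3 genes H3c3 (8.23 CPM in B, 12.8 in F) and H3c7 (17.7 in B, 23.7 in F), and the H4 gene H4c2 (13.2 in B, 19.7 in D), had their lowest mean in B. Litter A was the highest for 8 of 14 H2B genes and the lowest for the H4 genes H4c8, H4c12 and H4f16, with a median deviation from the mean of the litters of 0.11 log2 for H2B and -0.088 for H4.

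Of the replacement variants 3 had their highest mean in litter B. H3f3b averaged 704 CPM in litter B and between 464 and 554 CPM in the other litters (FDR = 3.9e-05), and H3f3a 348 CPM in B and between 279 and 334 in the others (FDR = 0.0087). H1f0 was also highest in B, at 127 CPM (FDR = 0.0150), while H1f10 was not called and was highest in D, at 8.61 CPM. Together the 4 variants summed to 1187 CPM in B and to between 881 and 1002 CPM elsewhere. H2bc21 was not called by litter, with 8.03 CPM in B and 6.41 CPM in A.

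**Figure D4:**
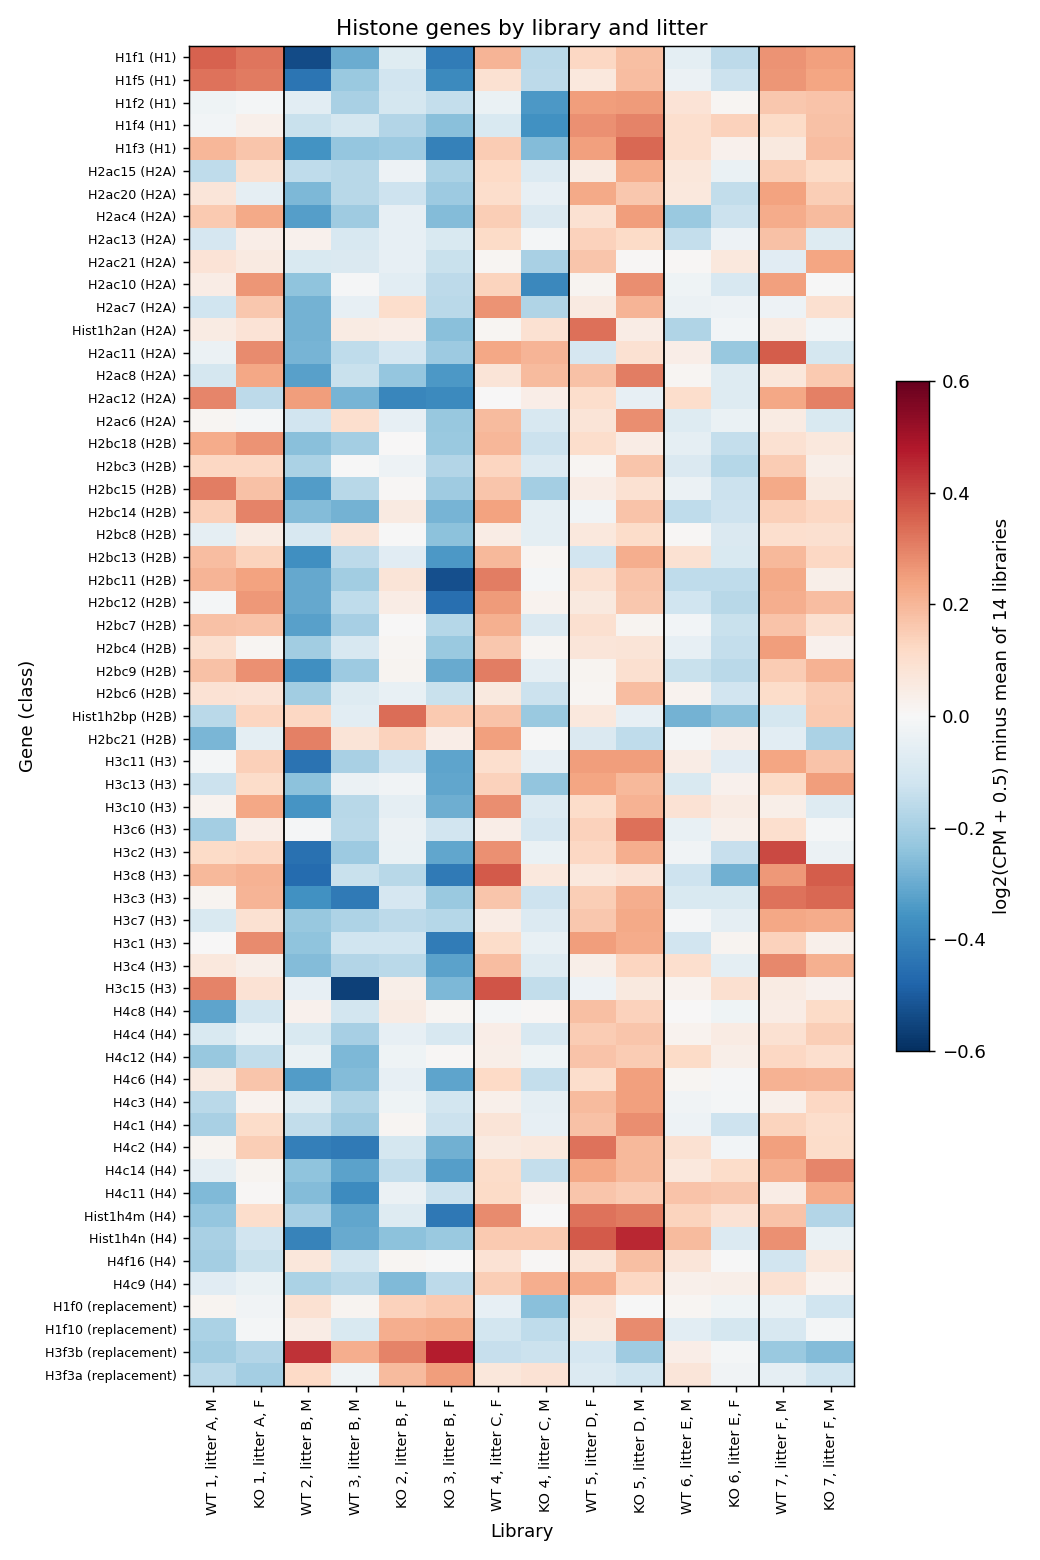
Log2(CPM + 0.5) of each of the 59 coding histone genes minus its mean over the 14 libraries (red above, blue below), libraries in columns by litter and genes in rows by class. Litter B is blue for most replication-dependent genes and red for H3f3b, and litters D and F are mostly red.

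The calls rest largely on litter B, which gave 4 of the 14 libraries. Without it, chosen after the data had been seen, 2 of 63 members had a litter FDR under 0.05, H1f4 (FDR = 0.0258) and H1f2 (FDR = 0.0487), against 1.09% of all genes, and 31 of 63 had an unadjusted p under 0.05, against 16.7% of all genes. Without litter D the count stayed at 38 of 63 and without litter F at 38 of 63. Other measures moved with litter too. All 18 genes of a G2/M list (Mki67, Top2a, Cdk1 and others) were called by litter, with sums between 334 and 366 CPM in the brains of B, between 406 and 440 in D, between 360 and 411 in C, between 386 and 411 in E, between 472 and 496 in F and between 516 and 531 in A, so that the KO brain of C lay within the range of B. Of 25 S phase genes (the Mcm helicase, Pcna, ribonucleotide reductase and others) 9 were called, a share near that of all genes, with litter means between 568 CPM in C and 629 CPM in A and 581 in B. Litter D, highest for the histone genes, was thus not highest for either list. RNAs made without a poly(A) tail outside the histone family (Rn7sk, Rmrp and others, 9 measured, 3 of them called by litter, again near the share of all genes) averaged 19643 CPM in B and between 16207 and 18364 CPM in the others, so that B was the highest litter for these RNAs and the lowest for the histone genes. All 7 red blood cell genes measured were called by litter, with sums of 247 CPM in B and 33.7 CPM in D, and so were all 6 oligodendrocyte precursor genes, with 300.2 CPM in B, 384 in D and 428 in A. The sums of 2 other progenitor lists, which share Pax6, ran the opposite way to the histone sum between B and D. Granule precursor genes (3 of 9 called, again near the share of all genes) averaged 384 CPM in B, the highest litter, and 326 CPM in D, the lowest. Cortical progenitor genes (8 of 10 called) averaged 486 CPM in B and 405 CPM in D, again the highest and the lowest litter. Astrocyte genes (4 of 6 called) averaged 1622 CPM in B and between 1785 and 2031 CPM in the others. The part of these measures in the litter differences was not tested, and litter cannot be told apart from exact age, dissection or handling that brains of a litter share.

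**Figure D5:**
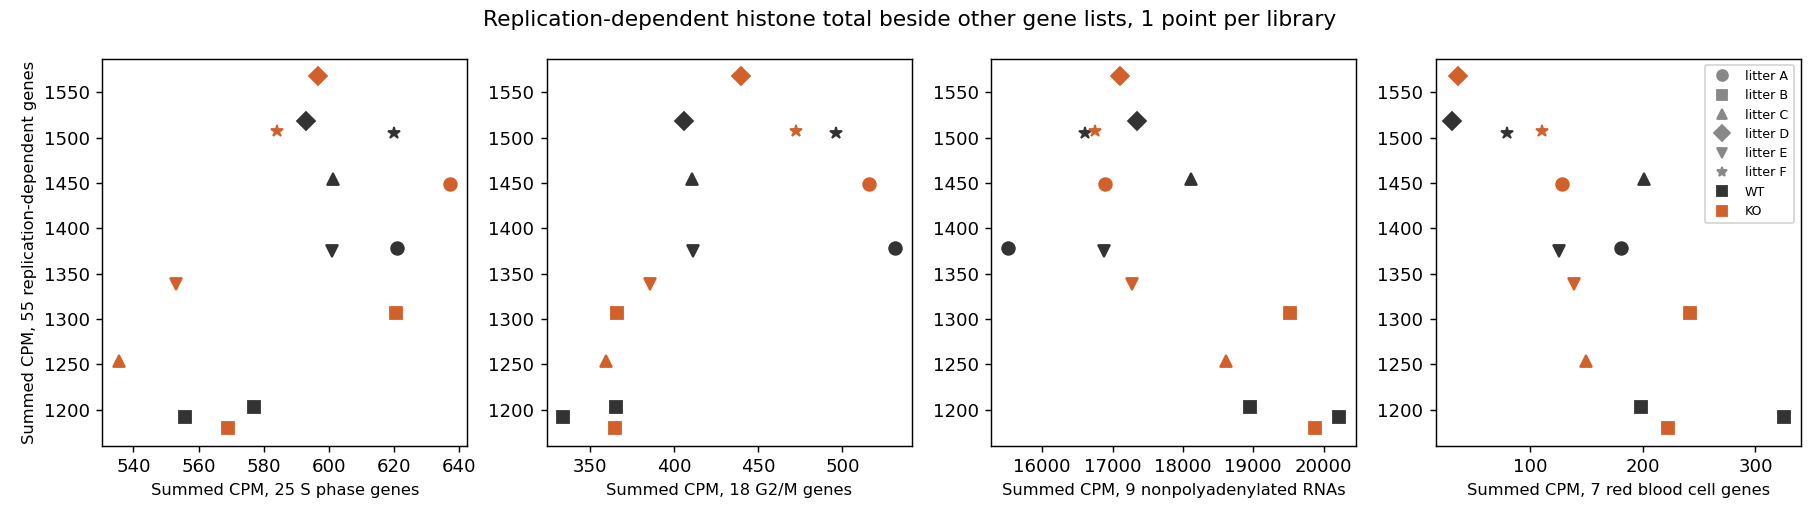
Summed CPM of the 55 replication-dependent histone genes in each library (vertical axis) against the summed CPM of 4 other gene lists, with symbols for litters and colours for genotype. The 4 brains of litter B are low on the vertical axis, low for G2/M genes and high for nonpolyadenylated RNAs, and the 2 of litter D are high on the vertical axis with red blood cell sums of 31.2 and 36.1 CPM.

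The genes that make, process and place histones were compared by genotype as lists. Of 24 genes that act on histone mRNA (transcription, end processing, translation and decay), 0 passed an FDR of 0.05 and 1 had an unadjusted p under 0.05, with 13 below and 11 above 0 and a median log2 fold change of -0.0043. Slbp, which binds the stem-loop, was at 36.8, 38.7 and 40.9 CPM in WT and 37.3, 37.8 and 40.4 CPM in KO (log2 fold change -0.01, standard error 0.0350). It was not called by litter (edgeR litter FDR = 0.982). Npat, the coactivator of histone gene transcription, was at 35.3, 37.8 and 42.8 CPM in WT and 34.6, 38.7 and 41.0 CPM in KO (log2 fold change 0.00024, standard error 0.0314). The gene with an unadjusted p under 0.05 was Zfp473, a zinc finger protein of the processing complex, at 1.72, 2.25 and 2.44 CPM in WT and 1.63, 1.91 and 2.23 CPM in KO (log2 fold change -0.23, standard error 0.0968, FDR = 0.933). Ctif, which serves translation initiation, had a log2 fold change of 0.06 and Lsm11, of the U7 particle, -0.04. By litter 5 of the 24 were called, or 20.8%, where 29.6% of all genes were.

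Of 22 histone chaperones and their partners, 0 passed the FDR and 0 the unadjusted p, with a median of -0.0078. The smallest p values were those of Tonsl (-0.11, standard error 0.0581), which binds new histones behind the fork, Asf1b (-0.13, standard error 0.0724), a carrier of H3 and H4, and Hat1 (-0.05, standard error 0.0343), which acetylates new H4. Among 7 variants not matched by the names (H2az1, H2az2, H2ax, H2aj, Macroh2a1, Macroh2a2 and Cenpa), 0 passed either threshold, and H2ax, the variant phosphorylated at DNA breaks, had a log2 fold change of 0.05 (standard error 0.0323).

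The proliferation lists gave no called gene by genotype either. Of 25 S phase genes 0 passed the FDR and 1, Mcm6, had an unadjusted p under 0.05, with 17 below 0, where 48.6% of all genes were, and a median of -0.05. Mcm6, a helicase subunit, was at 52.4, 59.5 and 61.0 CPM in WT, and 51.1, 55.3 and 63.3 CPM in KO (log2 fold change -0.09, standard error 0.0355, FDR = 0.933). Ccne2 (-0.12, standard error 0.0558) and Mcm4 (-0.08, standard error 0.0388) were next. Of 18 G2/M genes 0 passed the FDR and 1, Kif11, a spindle motor, had an unadjusted p under 0.05 (log2 fold change -0.07, standard error 0.0340), with 15 below 0 against the same 48.6%. These directions were not tested. Aurkb (-0.14, standard error 0.0727) and Tpx2 (-0.08, standard error 0.0470) were next, and Mki67, the Ki-67 antigen, was at 53.9, 64.8 and 91.8 CPM in WT, and 56.1, 63.7 and 85.5 CPM in KO (log2 fold change 0.02, standard error 0.0352). In the lists of cell types, 0 genes passed the FDR by genotype. At an unadjusted p under 0.05 there were 0 of 7 red blood cell, 0 of 9 granule precursor, 0 of 6 oligodendrocyte precursor, 1 of 10 cortical progenitor, 1 of 8 neuron, 1 of 6 astrocyte, 1 of 7 microglia and 1 of 6 endothelium genes, and 1 of the 9 nonpolyadenylated RNAs, where 5.14% of all genes passed.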

How the data were processed

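Brains of 7 WT and 7 KO mice were sequenced from total RNA depleted of ribosomal RNA. After trimming, the authors mapped reads to GRCm38 with STAR 2.7.8 and counted them per gene (HTSeq-count 0.11.1 in the methods, featureCounts in the submitters' processing notes), and they deposited raw counts for 17927 genes filtered by a rule not given in the sources used here. Handling of reads that match several genes, and the strand setting, are likewise not given. The sources also differ on the libraries. The methods name a ScriptSeq kit and a HiSeq, and the submitters' notes a stranded TruSeq kit and a NovaSeq. The labels gave the genotype, and a letter and F or M in the deposited table's column names were read as litter and sex, since the methods state 6 litters. Nothing states more than that each library is 1 brain, so that p-values measure the spread between brains.

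Library totals lay between 37620954 and 70910163 counts, and the floor of 3 counts covers counting error only. All 14 libraries were kept as separate samples (lowest chi-square per gene between any pair 4.66). Counts were fitted in R 4.3.3 with edgeR 4.0.16 (TMM, quasi-likelihood, genotype, litter and sex, no filter, Benjamini-Hochberg FDR over 17927 genes), and with DESeq2 1.42.0 and limma 3.58.1 as alternatives. Tables and figures were made with Python 3.11.15 and matplotlib 3.10.9. Positions, exons and transcripts came from GENCODE M21, where all 63 members matched, and promoters from RefSeq. Log2 levels used a prior of 0.5 CPM. The fit was tested on simulated data, with 9 false calls.

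The members and lists were chosen with earlier results of these data known. Genes named are Capn15, the 4 members of each class highest per kb, replacement variants, the 5 smallest genotype p, up to 10 called members of each test, and 3 genes of each pathway list besides Slbp, Npat and Mki67. Members outside this rule that a count or pair singles out were named after their values were seen. Same-numbered WT and KO libraries share a litter, and the correlation of their deviations from the group means lay between -0.36 and 0.426 over 17927 genes.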

Additional observations from a re-analysis of the deposited data

Results flagged for a closer look

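Among Capn15, the named histone members and the class sums, 72 groups of 7 libraries were examined for a library far from the others on the log2 CPM scale, by the ratio of the gap beside the extreme library to the range of the group, against Dixon's 95% critical value. About 1 in 20 groups passes by chance, which is 3.6 of the 72, and 2 passed. Both libraries that passed were of Capn15 in litter F, and no histone gene or class sum passed. The library labelled WT replicate 7 was the lowest WT library for Capn15, with a ratio of 0.761 (4.27 against 4.67 for the nearest). The library labelled KO replicate 7 was the highest KO library for Capn15, with a ratio of 0.649 (4.37 against 3.91). In the same litter the replication-dependent sum was 1506 CPM in the library labelled WT and 1508 CPM in the library labelled KO.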

How the results depend on the processing

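No histone member had an FDR under 0.05 by genotype or by sex in any of the settings run, and the histone members called by litter stayed between 28 and 45 of 63 when each library was left out in turn, but fell to 2 without litter B (all genes 196), a setting added after the data were seen. Genes of the whole table called by genotype numbered 1 in the reported fit, 17 with DESeq2, 34 with the likelihood ratio test, 7 without litter F, 0 without litter B or D, and 0 to 7 with single libraries left out. With the replicate number as a block, with or without sex, 0 genes and 0 members were called by genotype, so that the pairing changed no call of a member, and 2 members had an unadjusted p under 0.05 without sex. By sex, DESeq2 called 19 genes and the likelihood ratio test 36, against 12. Single libraries left out gave 11 to 16 genes by sex and 3626 to 5770 by litter. The log2 difference of the replication-dependent sum lay between -0.037 and 0.031 with single libraries left out. Fold changes near 0 turned sign: Npat to -0.00097 with DESeq2, -0.00097 with RLE factors, -0.0060 with upper quartile factors, -0.0037 without litter F, -0.0097 with genotype alone and -0.0095 with the block without sex; Mki67 to -0.0035 with genotype alone; H3f3a to -0.047 without litter B; and without litter D H3f3b to 0.0031, Mki67 to -0.013 and Slbp to 0.022. With single libraries left out the ranges were -0.016 to 0.026 for H3f3a, -0.043 to 0.0031 for H3f3b, -0.013 to 0.036 for Mki67, -0.030 to 0.035 for Npat and -0.054 to 0.022 for Slbp. Uncalled values that kept their sign but moved over 1.5 times were -0.23 to -0.04 for Aurkb, -0.15 to -0.01 for Tpx2, -0.20 to -0.07 for Ccne2, -0.18 to -0.04 for Tonsl, 0.07 to 0.17 for H1f10, -0.09 to -0.04 for H1f0, 0.03 to 0.07 for H2ax and -0.06 to -0.02 for Lsm11. The causes were not tested. H3c15, with 6 counts in its lowest library, is limited by depth.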
